A study of Mus musculus with 4 samples.

Results

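CDK7, the kinase that YKL-5-124 inhibits, works as part of the general transcription factor TFIIH. The transcripts of Cdk7 and of its 9 partner subunits were followed here in the cells of mouse lungs carrying orthotopic small cell lung cancer (SCLC). These 10 genes, of 31053 listed, are the subunits of TFIIH: Cdk7, Ccnh and Mnat1 of the CDK-activating kinase (CAK), and Ercc2, Ercc3, Gtf2h1, Gtf2h2, Gtf2h3, Gtf2h4 and Gtf2h5 of the core. They were taken from the known make-up of the complex. Single-cell 3′ RNA libraries (10x Genomics, v2 chemistry) came from 4 groups of mice with SCLC cells injected into the lung. The anti-PD-1 group received 200 µg per mouse of a blocking antibody (clone 29F.1A12), and the YKL-5-124 group 10 mg/kg of the CDK7 inhibitor on weekdays. The combination group received both agents, and the control group vehicle with isotype IgG. Whole lungs were digested and live cells sorted on DAPI. The sources used here do not name the tumour line, mouse strain, age or number of animals per library. Each group has 1 library, so a difference between groups has no replicate check.

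TFIIH opens DNA at the promoters of genes read by RNA polymerase II and then marks the tail of the polymerase. The XPB translocase (Ercc3) does the opening, and the CAK module of CDK7, cyclin H (Ccnh) and MAT1 (Mnat1) does the marking. The same core, with the XPD helicase (Ercc2), unwinds DNA around damage in nucleotide excision repair, while free CAK phosphorylates the cyclin-dependent kinases that drive the cell cycle. SCLC tumours, which divide fast and transcribe at a high rate, have been found sensitive to CDK7 inhibitors.

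The libraries held 17329001 to 22950622 unique molecular identifiers (UMIs). Cells were assigned to lineages by fixed marker genes, and "-like" marks these names as marker-based. Many barcodes passed the cell filters in more than 1 library: 658 did so, and any pair of libraries shared 469 to 537, against 12.9 to 22.8 by chance. The smaller copies carried a median of 2.40% of the UMIs of the largest. All copies under 10% of the largest, 1512 of 14411 barcodes, were left out, and 1182 of them were tumour-like. They made up 35.1% of the tumour-like barcodes but 3.48% of the tumour-like UMIs. With the copies kept, the level of Cdk7 in tumour-like cells was 14.7, 19.0, 14.8 and 14.4 CPM (UMIs of a gene per 1000000 UMIs of the lineage and library) in anti-PD-1, YKL-5-124, combination and control. Without them it was at 14.7, 19.0, 14.8 and 14.5 CPM. Tumour-like cells numbered 451, 587, 463 and 688 in the same order. All 19 tumour markers were found in at least 10% of them, and their summed level was 6930 CPM, against 44.6 to 78.5 CPM in T, NK and B cell-like and monocyte- or macrophage-like cells. In tumour-like cells the summed markers stood at 40.1 CPM for T cells, 18.7 CPM for NK cells, 56.9 CPM for B cells and 23.8 CPM for monocytes or macrophages. The same marker lists had assigned the cells, so these levels follow from the assignment and are no separate check of it.

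Promoters are shown for Cdk7, the target of the drug, and for Mnat1, the subunit that stood furthest above the immune lineages in tumour-like cells. Both are the 250 bases before the annotated start in RefSeq on GRCm38.p6, and Cdk7 lies on the minus strand (chr13:100730943-100731192) and Mnat1 on the plus strand (chr12:73123467-73123716). Capitals mark the GC box (GGGCGG, read on both strands) and the E-box CACGTG.

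Cdk7: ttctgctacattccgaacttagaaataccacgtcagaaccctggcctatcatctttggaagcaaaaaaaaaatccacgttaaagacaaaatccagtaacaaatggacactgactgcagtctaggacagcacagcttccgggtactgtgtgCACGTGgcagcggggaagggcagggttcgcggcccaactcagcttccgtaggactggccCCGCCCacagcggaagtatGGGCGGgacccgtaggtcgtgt

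Mnat1: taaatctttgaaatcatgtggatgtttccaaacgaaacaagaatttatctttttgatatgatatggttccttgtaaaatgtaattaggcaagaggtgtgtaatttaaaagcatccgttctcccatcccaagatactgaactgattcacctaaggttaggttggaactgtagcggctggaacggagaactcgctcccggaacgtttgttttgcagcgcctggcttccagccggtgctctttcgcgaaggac

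The Cdk7 window had a GC content of 53.6% and held 2 GC boxes and 1 E-box. The Mnat1 window had a GC content of 43.2% and held none of the 5 motifs searched on both strands, which were the GC box (GGGCGG), the E-box (CACGTG), the CCAAT box, the ETS site (CCGGAAGT) and the TATA box (TATAAA). Of the 10 genes, 8 had an entry in the promoter table. A GC box was found in 5 of these 8 and in 32.9% of all 27025 promoters. The E-box was found in 3, those of Cdk7, Gtf2h1 and Gtf2h5, and in 6.05% of all promoters. The CCAAT box was in 2 (34.5% of all), the ETS site in 1, that of Gtf2h2 (2.93%), and the TATA box in 0 (12.97%). A match describes letters in these windows and no binding of a factor.

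The genes are spread over several chromosomes (GRCm38, GENCODE M21). Cdk7 (ENSMUSG00000069089, chr13:100702631-100730939), Gtf2h2 (ENSMUSG00000021639, chr13:100460218-100492579) and Ccnh (ENSMUSG00000021548, chr13:85189408-85223469) lie on chromosome 13. Mnat1 (ENSMUSG00000021103) spans chr12:73123717-73273988. Ercc2 (ENSMUSG00000030400, chr7:19382010-19395694) and Gtf2h1 (ENSMUSG00000006599, chr7:46796103-46823800) lie on chromosome 7. Gtf2h3 (ENSMUSG00000029387) spans chr5:124579140-124597680. Gtf2h4 (ENSMUSG00000001524, chr17:35667730-35673739) and Gtf2h5 (ENSMUSG00000034345, chr17:6079786-6086517) lie on chromosome 17. None overlaps another protein-coding gene on its own strand.

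In tumour-like cells, the summed transcripts of the complex ranged between 399.6 and 427.9 CPM over the 4 groups. The 10 genes together gave 408.7 CPM in anti-PD-1, 427.9 CPM in YKL-5-124, 399.6 CPM in the combination and 413.2 CPM in control, from 2865, 3487, 2920 and 4557 UMIs. The summed level in YKL-5-124 was 1.04 times that in control (95% counting interval 0.991 to 1.08), that in the combination 0.967 times (0.923 to 1.01) and that in anti-PD-1 0.989 times (0.944 to 1.04). The combination stood at 0.978 times anti-PD-1 (0.928 to 1.03) and at 0.934 times YKL-5-124 (0.889 to 0.981), and of these 5 intervals this last one lay wholly below 1. The intervals here and below are exact and cover counting error only.

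**Figure D1:**
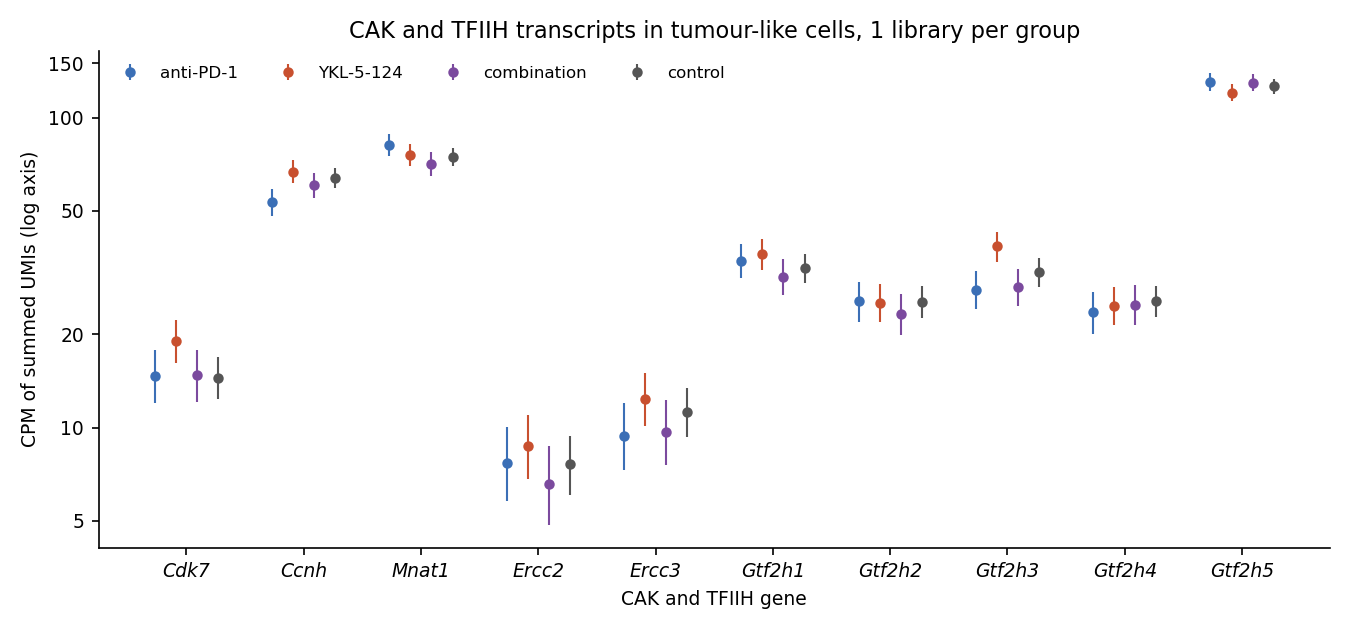
Level of each of the 10 genes in tumour-like cells (CPM, log axis) in anti-PD-1, YKL-5-124, combination and control, 1 library each. Points are levels and bars are exact Poisson 95% intervals, and Cdk7 stands at 19.0 CPM in YKL-5-124 and 14.5 to 14.8 CPM in the other libraries.

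Cdk7, the kinase itself, was highest in the YKL-5-124 library. It stood at 14.7 CPM in anti-PD-1 (103 UMIs), 19.0 CPM in YKL-5-124 (155 UMIs), 14.8 CPM in the combination (108 UMIs) and 14.5 CPM in control (160 UMIs). The 3 other libraries lay close together, although 1 of them, the combination, had also received the inhibitor. The ratio to control was 1.31 in YKL-5-124 (interval 1.04 to 1.65), 1.02 in the combination (0.791 to 1.31) and 1.01 in anti-PD-1 (0.783 to 1.31). On the log2 scale with 10 CPM added to each level, the YKL-5-124 difference was 0.24, above that of 92.3% of 8946 genes, and it ran between 0.10 and 0.37 over the alternatives. The combination stood at 0.777 times the level in YKL-5-124 (0.602 to 1.00).

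The partners of CDK7 in the kinase module moved less. Ccnh, whose product cyclin H activates CDK7, was at 53.4, 66.9, 60.5 and 63.7 CPM in anti-PD-1, YKL-5-124, combination and control. Its level in YKL-5-124 was 1.05 times control (0.937 to 1.18), and in anti-PD-1 it was 0.837 times control (0.736 to 0.950), a log2 difference below that of all but 2.84% of genes. Mnat1, whose product assembles the kinase module and anchors it to the core, was at 81.9, 75.8, 71.0 and 74.6 CPM. Its ratio to control was 1.02 in YKL-5-124 (0.914 to 1.13), 0.952 in the combination (0.851 to 1.06) and 1.10 in anti-PD-1 (0.985 to 1.22). Anti-PD-1 was thus lowest for Ccnh and highest for Mnat1.

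Among the helicases, Ercc3, which encodes the XPB translocase that opens promoters, was at 9.42, 12.4, 9.72 and 11.2 CPM in anti-PD-1, YKL-5-124, combination and control. Ercc2, which encodes the XPD helicase used in repair and bridges core and kinase module, was at 7.70, 8.71, 6.57 and 7.62 CPM. These levels rest on 48 to 84 UMIs for Ercc2 and 66 to 124 UMIs for Ercc3. The intervals of their ratios to control in YKL-5-124 held 1, with 1.14 (0.822 to 1.59) for Ercc2 and 1.10 (0.839 to 1.45) for Ercc3.

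Gtf2h3, which encodes the p34 structural subunit, had the widest spread among the non-enzymatic core genes: 27.8 CPM in anti-PD-1, 38.4 CPM in YKL-5-124, 28.5 CPM in the combination and 31.7 CPM in control, from 195, 313, 208 and 350 UMIs. As for Cdk7, the YKL-5-124 library was highest and the combination was not. The ratio to control was 1.21 in YKL-5-124 (1.04 to 1.41) and 0.897 in the combination (0.752 to 1.07). The combination stood at 0.741 times the level in YKL-5-124 (0.619 to 0.886), and 0.816% of genes had a lower log2 difference in that comparison.

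The other core subunits stayed close to control. Gtf2h1, which encodes p62, a docking subunit for activators and repair factors, was at 34.5, 36.3, 30.7 and 32.6 CPM in anti-PD-1, YKL-5-124, combination and control, and Gtf2h2, which encodes the p44 partner of XPD, at 25.5, 25.3, 23.3 and 25.4 CPM. Gtf2h4, which encodes the p52 partner of XPB, was at 23.5, 24.7, 24.9 and 25.6 CPM. Gtf2h5, which encodes the small subunit p8 that stabilises the core, was at 130.2, 120.4, 129.7 and 126.1 CPM. Gtf2h2 was the most level of these, except for the combination, which lay below the other 3 libraries. Over these 4 genes the ratios to control in YKL-5-124 ran between 0.955 for Gtf2h5 (0.879 to 1.04) and 1.11 for Gtf2h1 (0.951 to 1.30).

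**Figure D2:**
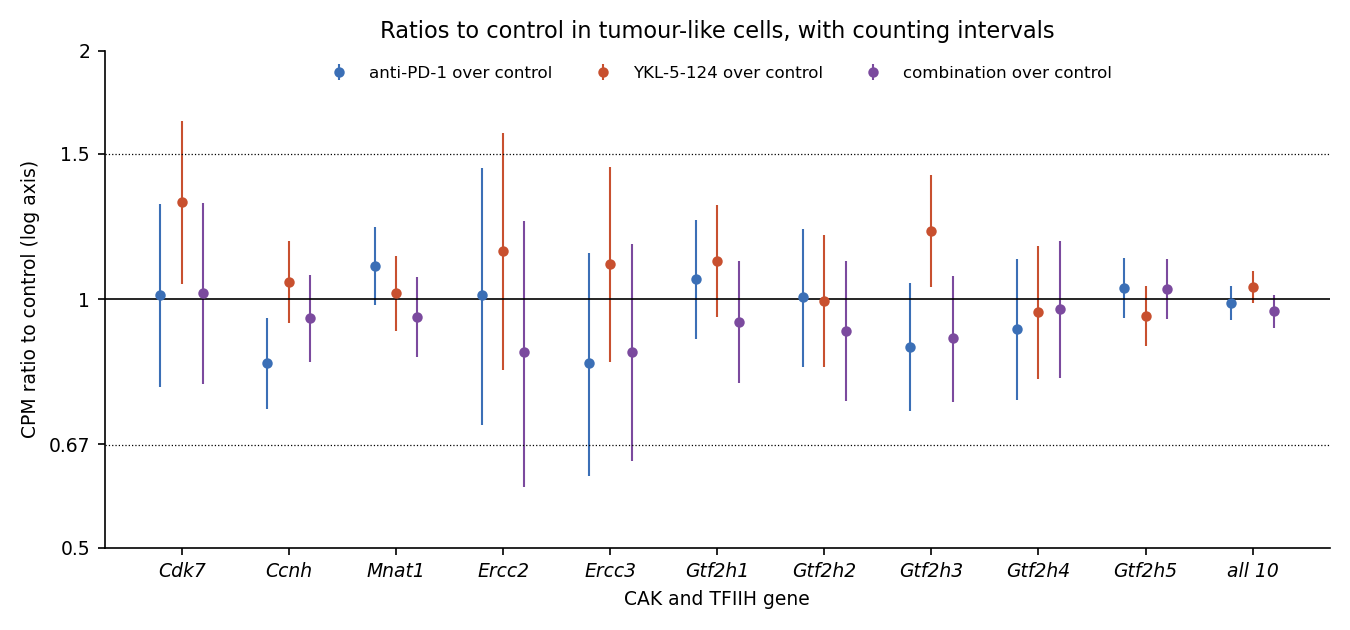
Level in each treated library (anti-PD-1, YKL-5-124, combination) over that in control, in tumour-like cells, for each gene and for all 10 summed (log axis). Bars are exact 95% counting intervals and dotted lines mark 1.5-fold, and all points lie between 0.837 and 1.31, inside these lines.

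A gene was called higher or lower where its log2 difference with 10 CPM added reached 1.5-fold, given a mean of at least 10 CPM over the 4 libraries. This is a rule of size and no test. Of the 9 genes measured in tumour-like cells by that minimum (all but Ercc2), 0 were called in YKL-5-124 against control, where 0.436% of all genes were called. The count was also 0 of 9 in the combination against control (1.54% of all genes) and in anti-PD-1 against control (0.447%). It was 0 of 9 again in the combination against anti-PD-1 (0.492%) and against YKL-5-124 (0.291%). With so few genes called in all, these counts are near the background. The count stayed at 0 under each of the 10 alternatives run. Cdk7 was higher in both libraries that had received YKL-5-124 than in both that had not, 1 of 9 genes against 24.4% of all genes. Gtf2h2 was lower in both, 1 of 9 against 14.2%. The margin for Cdk7 was carried by the YKL-5-124 library, since the combination, at 14.8 CPM, lay barely above anti-PD-1, at 14.7 CPM.

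Genes around the complex were read from fixed lists. In tumour-like cells, YKL-5-124 against control, 0 of 8 measured genes of the other general transcription factors were called (median log2 difference 0.05, against 0.04 over all genes). The counts were 0 of 12 for subunits of RNA polymerase II (median -0.10), 0 of 12 for other transcription kinases and their cyclins (0.05) and 0 of 13 for nucleotide excision repair (0.05). Polr2l, a small subunit shared by the nuclear RNA polymerases, was at 62.6 CPM in YKL-5-124 and 84.7 CPM in control, a ratio of 0.739 (0.662 to 0.824). Cdk9, the kinase of the elongation factor P-TEFb, was at 26.5 CPM in YKL-5-124 and 20.6 CPM in control, a ratio of 1.29 (1.06 to 1.56). Both missed the size rule.

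Cell-cycle kinases that CAK activates, with their cyclins, had the highest median of these lists, 0.27, and 1 of 9 was called. Ccnb1, a mitotic cyclin, was at 184.6 CPM in YKL-5-124 and 115.7 CPM in control, a ratio of 1.60 (1.48 to 1.72), and was the gene called. Ccne1, which drives entry into S phase, was at 46.1 CPM in YKL-5-124 and 28.8 CPM in control, a ratio of 1.60 (1.38 to 1.86), just short of the rule. Ccnb2 and Ccna2 had ratios of 1.40 (1.31 to 1.49) and 1.40 (1.30 to 1.52). The count of 1 became 2 with a pseudocount of 1 CPM, and 0 with one of 50 CPM or with each cell weighted equally. In the combination against control, 1 of 9 was called as well, which was Ccne1 at 51.3 CPM in the combination and 28.8 CPM in control (ratio 1.78, 1.53 to 2.07), and the median was 0.12 against 0.01 over all genes. In anti-PD-1 against control, 0 of 9 were called and the median was 0.07. The 4 cyclins were above control in that library too, without the inhibitor, with ratios of 1.27 for Ccnb1 (1.17 to 1.38), 1.31 for Ccne1 (1.11 to 1.54), 1.31 for Ccnb2 (1.22 to 1.41) and 1.21 for Ccna2 (1.11 to 1.32). The 10 genes of the complex had medians of 0.06 in YKL-5-124, -0.07 in the combination and 0.01 in anti-PD-1. The treated libraries share 1 control, so these values are not independent.

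Mnat1 was higher in tumour-like cells than in each immune lineage, whereas the levels of Cdk7 overlapped. UMIs were summed per lineage and library and compared over the 4 libraries with edgeR's quasi-likelihood test, library as a term, over 11119 genes with Benjamini-Hochberg adjustment. The SDs given are over 4 libraries of different treatment. Scaling by total UMIs in place of edgeR's TMM factors raised the median log2 difference by 0.61 against T cell-like, 0.50 against NK cell-like, 0.68 against B cell-like and 0.84 against monocyte- or macrophage-like cells. Directions are therefore given under both. The treated and control libraries enter as 4 replicates of a lineage. The p-values measure only the spread left after the library term, estimated for each gene over all 5 lineages in one fit. The SDs still hold the differences between libraries, so they show another spread.

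Mnat1 levels in tumour-like cells were 71.0 to 81.9 CPM, against 5.24 to 28.3 CPM in the 16 sums of the 4 immune lineages, with no overlap. It averaged 75.8 ± 4.52 CPM in tumour-like cells, against 23.9 ± 3.99 in T cell-like, 18.9 ± 5.19 in NK cell-like, 18.3 ± 4.29 in B cell-like and 12.6 ± 5.25 in monocyte- or macrophage-like cells (SD, n = 4). By edgeR's quasi-likelihood test the log2 difference from T cell-like cells was 1.07 (SE 0.13, adjusted p = 9.0e-09). The differences were 1.51 from NK cell-like (SE 0.20, adjusted p = 4.3e-08), 1.37 from B cell-like (SE 0.17, adjusted p = 1.2e-08) and 1.68 from monocyte- or macrophage-like cells (SE 0.17, adjusted p = 3.1e-10), by the same test. Under total-UMI scaling they were 1.68, 2.01, 2.06 and 2.52, and Mnat1 passed the test in each of 13 alternatives against each lineage. The share of all genes without overlap between tumour-like and immune sums was not determined. Free RNA, read from barcodes of 10 to 100 UMIs, held Mnat1 at 44.4 CPM (40.9 to 48.1), above every immune level. Its part in the immune levels was not tested.

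Cdk7 had nearly the same level in every lineage compared. It averaged 15.8 ± 2.18 CPM in tumour-like cells, against 15.7 ± 1.66 in T cell-like, 17.6 ± 6.11 in NK cell-like, 16.3 ± 6.18 in B cell-like and 14.1 ± 2.41 in monocyte- or macrophage-like cells (SD, n = 4). The order was NK, B, tumour, T and then monocyte or macrophage, and no neighbours differed by more than their SD. Under TMM scaling Cdk7 was lower in tumour-like cells, by edgeR's test, with log2 differences of -0.58 from T (SE 0.19, adjusted p = 0.0074), -0.67 from NK (SE 0.28, adjusted p = 0.031), -0.68 from B (SE 0.24, adjusted p = 0.012) and -0.70 from monocyte- or macrophage-like cells (SE 0.23, adjusted p = 0.0069). Under total-UMI scaling they were 0.03, -0.18, 0.01 and 0.14, none past the threshold, with edgeR adjusted p between 0.54 and 0.98. No direction is therefore given for Cdk7. In free RNA it was at 17.1 CPM (15.02 to 19.5), close to these levels.

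**Figure D3:**
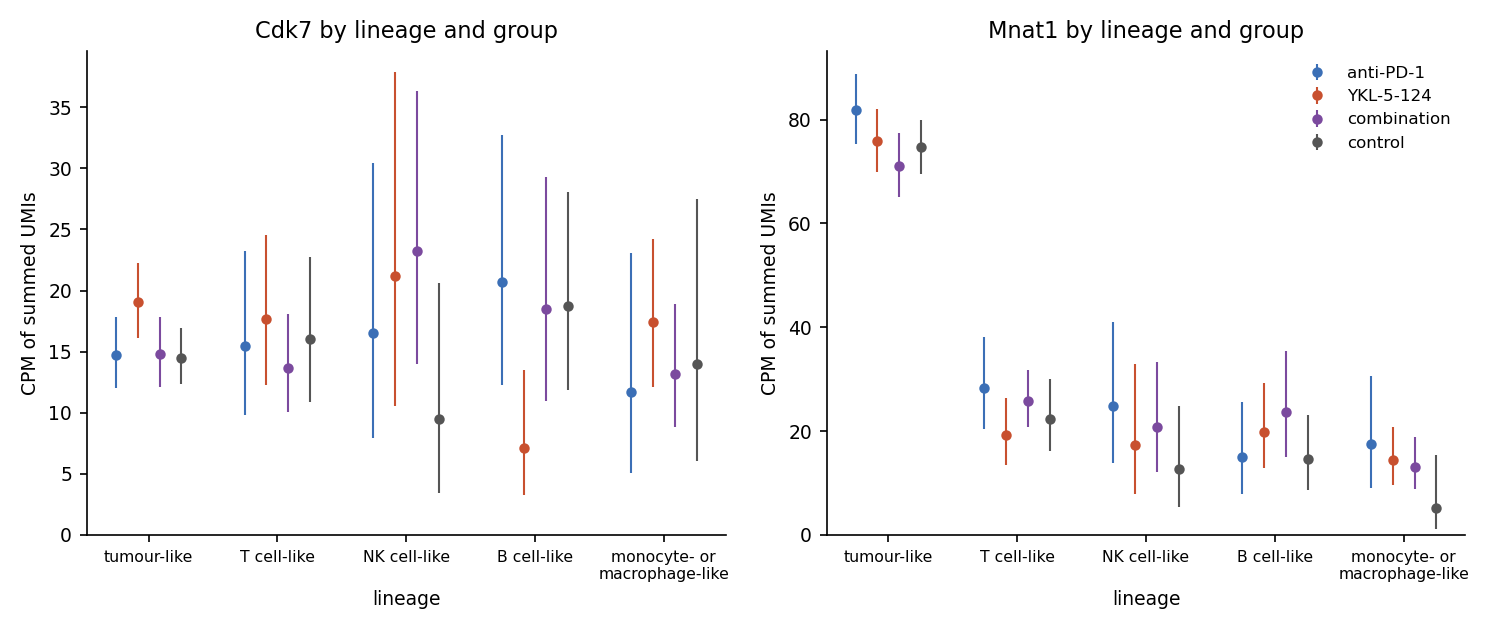
Levels of Cdk7 and Mnat1 (CPM) in 5 lineages and 4 libraries, as points with exact Poisson 95% intervals. Mnat1 in tumour-like cells lies at 71.0 to 81.9 CPM, apart from the immune lineages at 5.24 to 28.3 CPM, while Cdk7 in tumour-like cells (14.5 to 19.0 CPM) falls within the immune range of 7.12 to 23.3 CPM.

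Gtf2h3 and Gtf2h4 did not overlap in CPM either, and the share of all genes that did not was not determined. Levels in CPM carry the total-UMI scaling. Under it, all genes had median log2 differences of 0.81 from T and 0.76 from NK cell-like cells. From B and monocyte- or macrophage-like cells these medians were 0.90 and 1.10. Gtf2h3 was at 27.8 to 38.4 CPM in the 4 tumour-like sums against 6.36 to 20.2 CPM in the 16 immune ones, and Gtf2h4 at 23.5 to 25.6 CPM against 8.73 to 19.6 CPM. Under TMM scaling the log2 difference of Gtf2h3 was 0.49 from T cell-like (SE 0.16, edgeR adjusted p = 0.0067) and 1.03 from monocyte- or macrophage-like cells (SE 0.22, edgeR adjusted p = 9.8e-05). From NK and B cell-like cells it was 0.49 and 0.36, short of the threshold (edgeR adjusted p = 0.064 and 0.096). Under total-UMI scaling it was 1.10, 0.99, 1.05 and 1.88 from T, NK, B and monocyte- or macrophage-like cells, all past it. Gtf2h4 averaged 24.7 ± 0.846 CPM in tumour-like cells (SD, n = 4) against 9.99 to 16.1 CPM in the immune lineages, and passed in none of the 4 comparisons under TMM scaling and in all 4 under total-UMI scaling. Ccnh did likewise, averaging 61.1 ± 5.80 CPM in tumour-like cells (SD, n = 4) against 32.5 to 49.4 CPM. Under total-UMI scaling Gtf2h4 differed by 0.72, 0.61, 0.73 and 1.25 from T, NK, B and monocyte- or macrophage-like cells. Only the last of these was above the median of all genes.

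Some core subunits leaned the other way. Ercc2 was lower in tumour-like than in B cell-like cells under both scalings, at 7.65 ± 0.876 against 14.5 ± 2.15 CPM (SD, n = 4 each), with a log2 difference of -1.61 under TMM and -0.92 under total-UMI scaling (edgeR adjusted p = 0.00031 for the second). Gtf2h5, which averaged 126.6 ± 4.54 CPM in tumour-like cells (SD, n = 4) and 115.3 to 142.6 CPM in the immune lineages, passed as lower under TMM scaling in all 4 comparisons and in none under total-UMI scaling. In all, 2 of the 10 genes passed as higher and 5 as lower against T cell-like cells under TMM scaling, where 46.6% and 35.5% of all genes did, and 5 and 0 under total-UMI scaling (63.8% and 22.7%). Against NK cell-like cells 1 was higher and 3 lower (43.6% and 30.7% of all genes). Against B cell-like cells 1 was higher and 4 lower (44.5% and 33.7%), and against monocyte- or macrophage-like cells 2 and 3 (45.8% and 35.2%). Under total-UMI scaling the counts were 4 and 0 against NK cell-like cells (58.0% and 21.2% of all genes), 5 and 1 against B cell-like cells (63.0% and 20.2%) and 7 and 0 against monocyte- or macrophage-like cells (66.0% and 21.6%). As shares of 10 genes, the TMM counts are below the background for higher calls and near it for lower ones.

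The make-up of the complex needs no scaling between lineages. Mnat1 made up 18.4 ± 1.10% of the UMIs of the 10 genes in tumour-like cells, against 7.91 ± 1.31% in T cell-like cells (SD, n = 4 each). The lowest tumour-like share was 17.7% and the highest T cell-like one 9.35%. In the other lineages the mean was between 4.81% and 6.24%. Cdk7 made up 3.81 ± 0.429% in tumour-like cells and 5.20 ± 0.582% in T cell-like cells (SD, n = 4 each), and Gtf2h3 7.65% and 4.997%. The share of Gtf2h5 was 30.7 ± 1.92% in tumour-like cells and 41.1 ± 3.15% in T cell-like cells (SD, n = 4 each). Within the complex, transcripts thus tilted to Mnat1 in tumour-like cells. These are shares of UMIs, which do not give the proportions of the proteins. The shares of the 10 genes add up to the whole, so a higher share of Mnat1 lowers those of the others. In CPM, Cdk7 averaged 15.8 in tumour-like and 15.7 in T cell-like cells, and Gtf2h5 126.6 and 124.0.

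**Figure D4:**
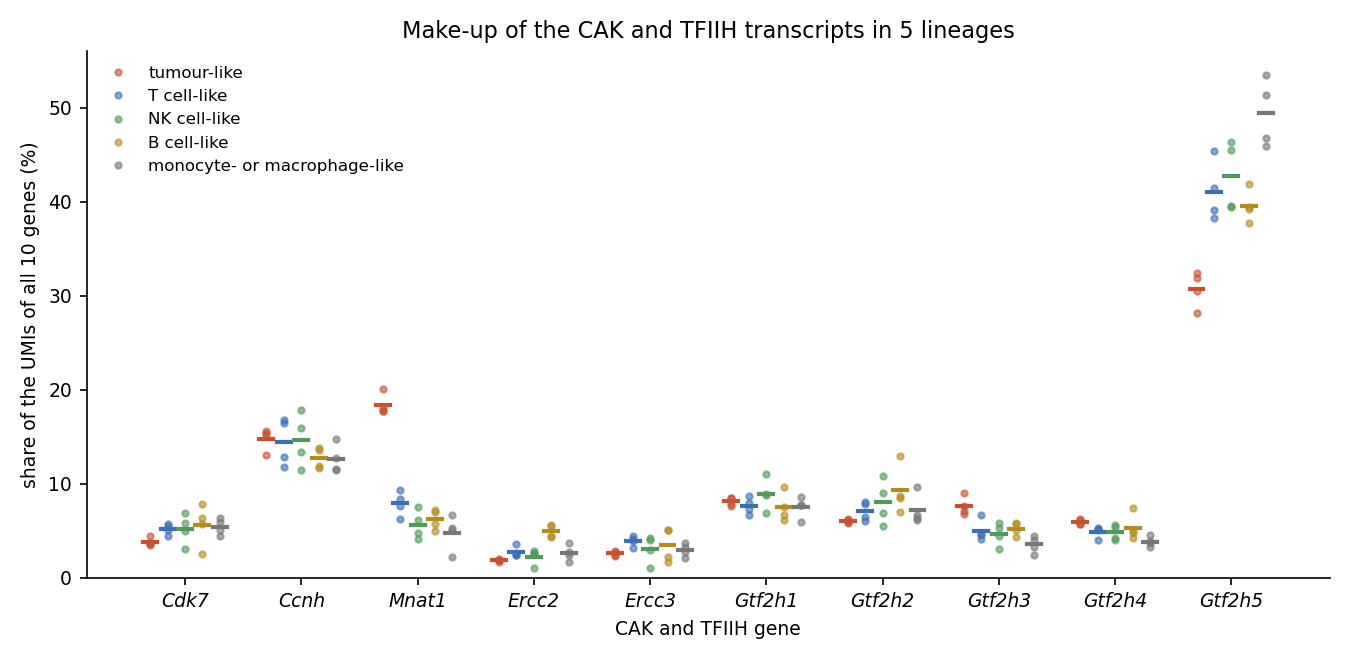
Share of each gene in the UMIs of all 10 genes (percent), in 5 lineages. Points are the 4 libraries and bars their mean, and Mnat1 stands at 18.4% in tumour-like cells and 7.91% in T cell-like cells.

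Between immune lineages, Ercc2 was higher in B cell-like cells than in the others, and few other differences held under both scalings. Of 60 tests over 6 pairs of immune lineages, 6 passed under TMM scaling by edgeR, 15 under total-UMI scaling and 4 under both. Those 4 were Ercc2 in its 3 pairs with B cell-like cells, and Mnat1. Of all genes, under TMM scaling, 14.0% were higher and 11.3% lower in T against NK, 18.1% and 14.7% in T against B, and 28.0% and 27.0% in T against monocyte- or macrophage-like cells. The shares were 15.4% and 16.1% in NK against B, 21.3% and 25.4% in NK against monocyte- or macrophage-like, and 25.4% and 26.8% in B against monocyte- or macrophage-like cells. Under total-UMI scaling they were, in the same order of pairs, 11.0% and 15.0%, 21.2% and 12.7%, 37.1% and 21.4%, 21.4% and 11.9%, 34.0% and 17.5%, and 30.8% and 23.1%. Ercc2 was lower in T than in B cell-like cells by 0.86 (edgeR adjusted p = 0.0077), lower in NK than in B cell-like cells by 1.09 (edgeR adjusted p = 0.012) and higher in B cell-like than in monocyte- or macrophage-like cells by 0.95 (edgeR adjusted p = 0.0068), on the log2 scale. The Ercc2 levels rest on few UMIs per library: 10 to 20 in B, 11 to 29 in T, 2 to 8 in NK and 3 to 15 in monocyte- or macrophage-like cells. Mnat1 was higher in T than in monocyte- or macrophage-like cells by 0.61 (edgeR adjusted p = 0.013). Cdk7 passed in none of the 6 pairs under either scaling.

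Lineages outside those compared gave further levels, as sums over all libraries. Neutrophil-like cells held Cdk7 at 5.07 CPM (10 UMIs), Mnat1 at 3.04 CPM (6 UMIs) and all 10 genes at 124.2 CPM. Of these 1041 cells 686 came from the YKL-5-124 library, so the values largely describe that library. Plasma cell-like cells held Cdk7 at 12.5 CPM, Mnat1 at 11.8 CPM and all 10 genes at 148.9 CPM. Both sums are below the 258.0 ± 16.05 CPM of monocyte- or macrophage-like cells, the lowest of the 5 lineages, and the 412.3 ± 11.8 CPM of tumour-like cells (SD, n = 4 each). Endothelial cell-like cells held Cdk7 at 35.3 CPM (10 UMIs, interval 16.9 to 65.0) and all 10 genes at 321.6 CPM. These lineages had too few cells in some libraries for the test.

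The machinery around the complex was also compared between tumour-like and T cell-like cells, where 46.6% of all genes passed as higher and 35.5% as lower under TMM scaling, and 63.8% and 22.7% under total-UMI scaling. By edgeR under TMM scaling, 3 of 9 other general transcription factors passed as higher and 3 as lower (6 and 0 under total-UMI scaling). Gtf2a2, the small subunit of TFIIA, averaged 594.8 ± 12.2 CPM in tumour-like cells and 101.8 ± 6.31 in T cell-like cells, and Gtf2e2, the TFIIE subunit beta, 186.01 ± 12.3 and 35.1 ± 2.89 CPM (SD, n = 4 each). Their log2 differences were 1.95 and 1.81. Of the subunits of RNA polymerase II, 9 of 12 were higher and 2 lower (11 and 0 under total-UMI scaling). Of the other transcription kinases and their cyclins, 2 of 12 were higher and 6 lower (10 and 1), and Cdk9 was lower under both, by 1.40 and 0.80. Of nucleotide excision repair genes 5 of 16 were higher and 6 lower (10 and 2). Among the cell-cycle kinases and cyclins 8 of 12 were higher and 4 lower under both scalings. Ccne2, a cyclin of S-phase entry, differed by 4.26, while Cdk6, a G1 kinase, and Ccnd2, a G1 cyclin, each differed by -6.67 under TMM scaling.

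In T cell-like cells the complex was close to level across the groups, with 302.1, 306.6, 307.9 and 291.0 CPM for all 10 genes in anti-PD-1, YKL-5-124, combination and control. Cdk7 was at 15.5, 17.7, 13.6 and 16.1 CPM (23, 35, 48 and 31 UMIs), and Mnat1 at 28.3, 19.2, 25.8 and 22.3 CPM. Of 9 measured genes, 0 were called in each comparison. Of all genes, 7.53% were called in YKL-5-124 against control, 9.64% in the combination against control and 3.66% in anti-PD-1 against control. In the combination 6.05% were called against anti-PD-1 and 2.04% against YKL-5-124. For 9 genes, counts of 0 are near these shares. Ccnh was at 49.8, 51.4, 36.3 and 37.3 CPM. Its ratio in YKL-5-124 to control was 1.38 (1.01 to 1.89), short of the rule. Gtf2h3 came nearest to the rule, with a ratio of 1.69 in anti-PD-1 to control without a pseudocount (0.952 to 3.06), and was called under 1 of 10 alternatives. Among the cell-cycle kinases and cyclins of these cells, 5 of 10 were called higher in YKL-5-124 against control (median log2 difference 0.63, against 0.09 over all genes; 3 to 6 over the alternatives), among them Ccna2 with a ratio of 5.46 and Cdk1 with one of 2.41. The count was 4 of 10 in the combination (2 to 6 over the alternatives) and 0 of 10 in anti-PD-1, both against control.

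Over all 5 lineages 18 of 215 measured comparisons of a gene were called, all in the sparser lineages and resting on few UMIs. NK cell-like cells gave 9 of 45, B cell-like cells 6 of 50 and monocyte- or macrophage-like cells 3 of 30. Shares over all genes are given with the counts of single comparisons. The comparisons share libraries, so these calls are not separate events. In B cell-like cells Cdk7 was at 20.7, 7.12, 18.5 and 18.7 CPM in anti-PD-1, YKL-5-124, combination and control (18, 9, 18 and 23 UMIs). YKL-5-124 was lowest here, whereas it was highest in tumour-like cells, and its level was 0.380 times control (0.155 to 0.853). In that comparison 2 of 10 genes were called against 4.79% of all genes, the other being Ercc3, at 14.2 CPM in YKL-5-124 and 4.88 CPM in control (ratio 2.92, 1.11 to 8.97). Ercc3 was also called in the combination against control (ratio 3.37, 1.25 to 10.5), where 1 of 10 genes and 6.32% of all genes were called. Ercc3 was at 14.2 and 16.5 CPM in YKL-5-124 and combination against 5.76 and 4.88 CPM in anti-PD-1 and control. Of the 10 genes, 4 were higher in both libraries that had received YKL-5-124 than in both that had not (Ccnh, Mnat1, Ercc3 and Gtf2h5; 24.5% of all genes), and 1 was lower (Cdk7; 13.9%). In NK cell-like cells 3 of 9 were higher in this way (Cdk7, Ercc3 and Gtf2h3; 18.0% of all genes) and 0 lower (16.0%). The count in T cell-like cells was 1 of 9 higher (Gtf2h4; 33.6%) and 0 lower (15.4%), and in monocyte- or macrophage-like cells 1 of 6 lower (Gtf2h2; 16.6%). By the size rule, the B cell-like count was 1 of 10 in anti-PD-1 against control (6.4% of all genes), which was Gtf2h2 at 18.4 CPM in anti-PD-1 and 38.3 CPM in control. It was also 1 of 10 in the combination against anti-PD-1 (7.35%; Ercc3) and against YKL-5-124 (4.37%; Cdk7, ratio 2.60, 1.11 to 6.57). Over the alternatives these B cell-like counts ran between 0 and 3.

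NK cell-like cells held Cdk7 at 16.6, 21.2, 23.3 and 9.46 CPM in anti-PD-1, YKL-5-124, combination and control, from 10, 11, 19 and 6 UMIs. The ratio to control was 2.24 in YKL-5-124 (0.759 to 7.37) and 2.46 in the combination (0.944 to 7.52). In each of the 3 comparisons with control 3 of 9 genes were called, against 12.2% of all genes in YKL-5-124, 10.3% in the combination and 12.2% in anti-PD-1. Cdk7, Ercc3 and Gtf2h3 were called in YKL-5-124 and in the combination, and over the alternatives the counts ran between 0 and 5. In anti-PD-1, without the inhibitor, 2 were called higher (Ercc3 and Mnat1) and 1 lower (Gtf2h2). Ercc3 had a ratio of 3.15 there (6 UMIs in anti-PD-1), so it was called in each comparison with control. Ercc3 had 2 UMIs in control, so its ratio of 4.88 in YKL-5-124 has an interval of 0.974 to 47.2. For the combination, 0 of 9 genes were called against anti-PD-1 (10.7% of all genes) and 0 of 9 against YKL-5-124 (10.5%). In monocyte- or macrophage-like cells Mnat1 was called in each comparison with control, 1 of 6 genes each time, where 9.34%, 8.87% and 12.2% of all genes were called in YKL-5-124, combination and anti-PD-1. It was at 17.6, 14.4, 13.2 and 5.24 CPM in anti-PD-1, YKL-5-124, combination and control, and the control level rests on 3 UMIs. The ratio was 3.36 in anti-PD-1 (0.906 to 18.5), 2.75 in YKL-5-124 (0.853 to 14.1) and 2.52 in the combination (0.780 to 12.9). Over the alternatives the counts ran between 0 and 2.

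Within tumour-like cells the summed level of the complex was similar in deep and shallow cells. Cells of each library were split by UMIs into 3 equal groups. The deepest group had 409.6 ± 12.6 CPM of the 10 genes and the shallowest group 413.7 ± 19.8 CPM (SD, n = 4 each), with library ratios of 0.959 to 1.02. Cdk7 was at 15.3 ± 2.13 CPM in the deepest and 16.3 ± 6.34 CPM in the shallowest group, and Mnat1 at 76.7 ± 6.07 and 74.1 ± 15.6 CPM (SD, n = 4 each). Gtf2h1 was higher in the deepest group in 4 of 4 libraries (34.6 ± 3.66 against 27.0 ± 5.12 CPM) and Gtf2h3 lower in 4 of 4 (29.3 ± 5.33 against 40.5 ± 9.62 CPM; SD, n = 4 each). The library ratios were 1.05 to 1.57 for Gtf2h1 and 0.582 to 0.973 for Gtf2h3. Their shallow levels rest on 14 to 28 and 17 to 43 UMIs. The share of all genes with the same direction in 4 of 4 libraries was not determined. The depth groups were made from the data and are described without a test. Cdk1, the mitotic kinase that CAK activates, was at 352.3 ± 23.9 CPM in the deepest and 171.4 ± 18.9 CPM in the shallowest group (SD, n = 4 each), higher in 4 of 4 libraries. The other cell-cycle kinases and cyclins were mixed. Ccna2, Ccnb1, Ccnd3, Ccne1 and Ccne2 were higher in the deepest group in 4 of 4 libraries, and Ccnb2 and Cdk4 in 3. Cdk6 was higher in 2, Cdk2 in 1, and Ccnd1 and Ccnd2 in 0. The shallowest group held Mnat1 at 55.5 to 92.5 CPM, above the immune maximum of 28.3 CPM. Its median depths were 4229.5 to 5077 UMIs per cell. Those of T, NK and B cell-like cells were 1460 to 2401.5 UMIs, and those of monocyte- or macrophage-like cells 3584.5 to 4262 UMIs. Depth was thus not matched, and its part in the difference was not tested.

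**Figure D5:**
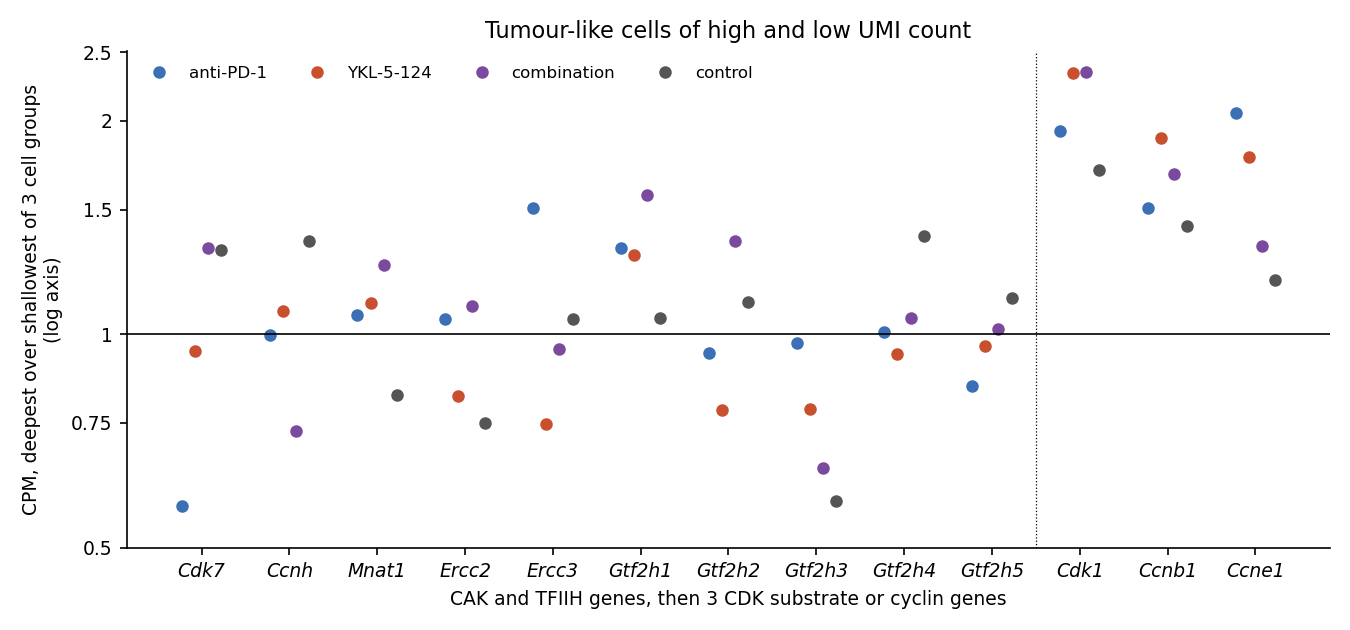
Ratio of the level in the deepest group of tumour-like cells by UMIs to that in the shallowest group, for the 10 genes and for Cdk1, Ccnb1 and Ccne1 (log axis, points are the 4 libraries). Gtf2h1 lies above 1 and Gtf2h3 below 1 in 4 of 4 libraries, and Cdk1 lies between 1.70 and 2.34. Other cell-cycle genes are not drawn, among them Cdk2, above 1 in 1 of 4 libraries, and Ccnd1 and Ccnd2, in 0 of 4.

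Per cell these transcripts were sparse. After thinning tumour-like cells to 1500 UMIs, 3.46%, 3.74%, 2.65% and 1.66% of cells in anti-PD-1, YKL-5-124, combination and control held a Cdk7 UMI, and 48.3%, 52.1%, 43.4% and 43.7% a UMI of any of the 10 genes. Thinning left out 18, 25, 11 and 26 shallower cells. Unthinned, the Cdk7 shares were 18.6%, 19.9%, 19.0% and 19.0%, and those for any of the genes 90.2%, 91.5%, 89.4% and 90.0%. At 800 UMIs the Cdk7 shares were 1.80%, 1.55%, 1.09% and 1.32%, and the order of the libraries changed, so no order is read from them. Neutrophil-like cells, lowest in these genes, had any of the 10 in 7.58% to 9.23% of cells at 800 UMIs, against 26.6% to 30.9% of tumour-like cells. Their median depths were 966.5 to 1623 UMIs, against 8535 to 9516 UMIs in tumour-like cells.

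No gene followed Cdk7 closely over the 20 sums of lineage and library. Among 8000 genes the highest Pearson r outside the complex, on log2 levels with 10 CPM added, was 0.59 for Zfp943, with Zfp800 at 0.58, Vti1a at 0.57, Zfp407 at 0.56 and Kat6a at 0.54. Leaving out any 1 library kept 1 of these 5 among the first 5. The genes of the complex had r between -0.13 (Gtf2h5) and 0.33 (Gtf2h1) with Cdk7, and Ccnh and Mnat1, its partners in the kinase module, 0.21 and 0.07. Among the 8000 genes, Gtf2h1 ranked at percentile 98.6, Gtf2h3 at 98.1, Gtf2h4 at 97.45 and Ercc2 at 96.4. Ccnh ranked at 91.6, Ercc3 at 90.2, Gtf2h2 at 75.3, Mnat1 at 61.3 and Gtf2h5 at 16.3. Cdk7 rests on 6 to 35 UMIs in the NK, B and monocyte- or macrophage-like sums, and the part of counting error in these r was not tested. The sums share libraries and depth, and these values describe them only.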

How the data were processed

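Single-cell 3′ RNA libraries from 4 groups, 1 library each, were used. As deposited by the authors, each matrix lists unnormalized UMI counts for all barcodes, cells or not. The submitters' processing notes name bcl2fastq, Cell Ranger and hg19, a human build, although all gene IDs are mouse Ensembl IDs, so the build used is not given in the sources. Per the file headers the software version was 3.0.0. Locations come from GENCODE M21 on GRCm38, in which 30934 IDs were found and 119 were not, and promoters from RefSeq GRCm38.p6.

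Barcodes needed 500 UMIs, 300 genes and no more than 10% mitochondrial UMIs. Of barcodes shared between libraries, copies under 10% of the highest UMI count were left out, a step added after the data were seen. Library medians were 1939 to 2239 UMIs per cell before that step, which left 12899 cells. A cell took a lineage with at least 3 UMIs of at least 2 of its markers and 2 times those of the next lineage, and 11799 cells did. Unintegrated Leiden clusters, 25 of 27 named, placed 94.6% to 99.5% of the gated cells of the 5 compared lineages in the same class. Doublets were scored with Scrublet, which marked 24, 53, 3 and 2 cells in anti-PD-1, YKL-5-124, combination and control. None was removed in the results, and an alternative left out the 42, 116, 107 and 80 highest scores.

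UMIs were summed per lineage and library. Levels are UMIs per 1000000 UMIs (CPM) with exact Poisson 95% intervals, and ratios have exact conditional binomial ones. Log2 differences between groups used a pseudocount of 10 CPM. Treatments were not tested, as each has 1 library. More transcripts of a gene and less of all other RNA per cell cannot be told apart in CPM. Lineages with at least 100 cells in each library were compared with edgeR's quasi-likelihood test (lineage and library as terms, TMM, adjusted p under 0.05). UMI counts can carry reads from near-identical copies, and whether counting used the strand was not stated. On simulated counts the lineage test recovered 72.3%, 96.7% and 100% of genes changed 1.5-, 2- and 4-fold (10709 genes). There, all lineages shared the same profile apart from the changed genes, with a fixed spread and no library effect. The simulation therefore does not cover the shift between TMM and total-UMI scaling in the data, and recovery there is not known. For YKL-5-124 against control in tumour-like cells, 95.2% of the simulated intervals of unchanged genes covered the truth (8945 genes).

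The 10 genes are all named. Of each other list at most 4 genes with the largest differences are named, in tumour-like cells for YKL-5-124 against control and for tumour- against T cell-like cells. The genes and lists were chosen with earlier results of these data known. Alternatives were other scalings, filters, gates, cluster classes, pseudocounts, cell weights, doublet removal, copies kept and a library left out. Tests ran in R 4.3.3 with edgeR 4.0.16 and DESeq2 1.42.0, clustering in Scanpy 1.11.5 with leidenalg 0.10.2, and the rest in Python 3.11.15 with SciPy 1.17.1, NumPy 2.4.6, pandas 2.3.3 and Matplotlib 3.10.9.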

Additional observations from a re-analysis of the deposited data

Results flagged for a closer look

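Of 50 sets of 4 libraries (10 genes in 5 lineages), 3 had a library standing apart from the others by Dixon's ratio, where chance gives about 2.5. Cdk7 in tumour-like cells was at 19.0 CPM in YKL-5-124 (155 UMIs) and 14.5 to 14.8 CPM in the other libraries. Cdk7 in B cell-like cells was at 7.12 CPM in YKL-5-124 (9 UMIs) and 18.5 to 20.7 CPM in the others. Gtf2h2 in tumour-like cells was at 23.3 CPM in the combination (170 UMIs) and 25.3 to 25.5 CPM in the others.

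Cdk7 differed in opposite directions between lineages when both libraries that had received YKL-5-124 were set against both that had not. The lineages were picked for levels without overlap, higher or lower, so the opposite directions follow from that choice. Of all genes, 24.4% were higher in this way in tumour-like and 18.0% in NK cell-like cells, and the share lower in B cell-like cells is given above. In NK cell-like cells the levels of Cdk7 rest on 6 to 19 UMIs. The mean log2 difference was 0.12 in tumour-like cells, 0.50 in NK cell-like cells and -0.43 in B cell-like cells. The tumour-like value exceeded the B cell-like one by 0.55 and the NK cell-like value exceeded it by 0.93. In tumour- and B cell-like cells the difference rests on the YKL-5-124 library. The combination was at 14.8 CPM in tumour-like cells, against 14.7 and 14.5 CPM in anti-PD-1 and control, and at 18.5 CPM in B cell-like cells, against 20.7 and 18.7 CPM. In T cell-like and monocyte- or macrophage-like cells the libraries with and without YKL-5-124 overlapped. These differences were not tested.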

How the results depend on the processing

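Scaling was the choice that moved most. With total UMIs in place of TMM, the genes passing as higher and lower in tumour-like cells numbered 5 and 0 against T cell-like, 4 and 0 against NK cell-like, 5 and 1 against B cell-like and 7 and 0 against monocyte- or macrophage-like cells. Log2 differences that turned positive under it were Cdk7 0.032, Ccnh 0.52, Gtf2h1 0.53, Gtf2h2 0.24 and Gtf2h5 0.034 against T cell-like cells. Against NK cell-like cells they were Ccnh 0.33, Ercc3 0.051 and Gtf2h1 0.20, and against B cell-like cells Cdk7 0.0053, Ercc3 0.077, Gtf2h1 0.66 and Gtf2h5 0.14. Against monocyte- or macrophage-like cells they were Cdk7 0.14, Ercc2 0.19, Ercc3 0.68, Gtf2h1 0.72 and Gtf2h2 0.50. The total-UMI scaling and the kept copies were chosen after seeing the data. DESeq2 size factors in edgeR gave 2 higher against NK and 2 against B cell-like cells, with Gtf2h1 at 0.0055 against T (0.0057 by DESeq2's Wald test) and 0.063 against B cell-like cells (0.063 by Wald). Without the filter on low counts the Gtf2h1 difference from B cell-like cells was 0.0203, and with Leiden classes Gtf2h4 against NK was -0.0015 and Ccnh against B cell-like cells -0.014. The cause was not tested for these small values.

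Leaving out each library in turn, the count higher ran between 1 and 2 against T (1 without YKL-5-124) and NK cell-like cells (2 without the combination), and the count lower against NK cell-like cells between 1 (without the combination) and 4. The Ccnh difference from T cell-like cells ran between -0.21 and 0.032, that of Gtf2h1 from B cell-like cells between -0.20 and 0.0705 and that of Gtf2h4 between -0.11 and 0.19. Without the replicate block, that is, without the library as a term, the counts higher and lower were 2 and 5 against T, 1 and 3 against NK, 1 and 5 against B and 3 and 3 against monocyte- or macrophage-like cells. With the copies kept they were 2 and 5, 1 and 3, 1 and 4, and 2 and 3, and Mnat1 differed by 1.08, 1.53, 1.38 and 1.69. No paired analysis was possible for the treatments because each group has 1 library, and for the same reason no library was left out there. All 250 alternative values of a treatment sum stayed within the counting interval of the reported ratio. Of 250 treatment counts 32 moved, none of them in tumour-like cells. In B, NK and monocyte- or macrophage-like cells a level of Cdk7 rests on 6 to 35 UMIs, which limits what a ratio there can show.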
